A study of Homo sapiens with 4 samples.

Results

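Lysophosphatidic acid (LPA) signaling was read out through 10 genes in the RNA-seq data, namely the LPA receptors LPAR1 to LPAR6, the LPA-producing enzyme ENPP2 (autotaxin) and the lipid phosphate phosphatases PLPP1, PLPP2 and PLPP3. The members were chosen as a gene family by symbol, not by their values, though with earlier results of these data known. They are 10 of the 58735 genes counted. Receptor transcripts were carried by LPAR2 and LPAR5 in the PBS-labelled library, and by LPAR3, LPAR2 and LPAR1 in the libraries from cells given migrasomes (Migs). LPAR6 had between 4 and 15 reads, and LPAR4 had 0 reads in all 4 libraries. Among the 3 Mig libraries, no receptor was past 2-fold on the fitted scale, where LPAR6 came closest on 7 and 15 reads.

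Per the labels, the RNA came from wild-type MHCC-97H cells, an established, highly metastatic hepatocellular carcinoma (HCC) line, after 24 h of treatment, with 1 library per condition. Migs are membrane vesicles that migrating cells leave behind on their retraction fibers. One library was from cells given PBS, and the other 3 were from cells given 2 μg of Migs. MHCC-97H cells in normoxia were the donors of normo-Migs, the same line in hypoxia gave hypo-Migs, and its CD147-knockout derivative in hypoxia gave CD147KO-Migs, so that every agent came from the line that received it or from its derivative. The labels and the supplementary methods give normoxia for the donors of normo-Migs, whereas the methods in the main text give hypoxia, and the labels are followed here. The sample labels list several oxygen levels for the donor cells without saying which one gave these Migs. CD147 (BSG) was knocked out in the donor of the CD147KO-Migs and not in the recipient cells, so these libraries cannot show the knockout. The study asked how hypo-Migs reach and change HCC cells and examined LPAR6 for its part in their uptake by macropinocytosis, the engulfment of fluid into large vesicles.

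LPA is a small signaling lipid that autotaxin makes outside the cell by removing choline from lysophosphatidylcholine. It acts on G protein-coupled receptors of separate origin, the EDG-type receptors LPAR1, LPAR2 and LPAR3 and the P2Y-type receptors LPAR4, LPAR5 and LPAR6. These couple to several classes of G protein, and the lipid phosphate phosphatases end the signal by removing the phosphate of LPA at the cell surface. In liver, the pathway is known for its link to fibrosis and to HCC growth and motility.

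In other experiments of the study, LPAR6 was knocked down with 3 siRNAs, and no library analysed here is labelled as transfected with them. Their sense strands are shown because they mark the piece of the transcript that the study's siRNAs against LPAR6 target. Capitals mark bases 12 to 18 of the 19, which pair with the seed of the guide strand.
LPAR6-KD1: gguuaauauccAAUUGUGu
LPAR6-KD2: guucuuaaccuGUAUUAGu
LPAR6-KD3: ccuguuacauuAAGUAGAa
On GRCh38, they lie on the minus strand at chr13:48412314-48412332, chr13:48412091-48412109 and chr13:48411766-48411784. All 3 fall in the coding part of exon 7 of 7 of the transcript LPAR6-202. Among 206694 transcripts of GENCODE release 29, each matched no gene other than LPAR6, in 3 transcripts for KD1 and in 4 for KD2 and KD3.

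The promoters of 5 members are shown as RefSeq gives them on GRCh38.p14, from 250 bases before to 50 bases after the start site, with each CG in capitals. LPAR1, LPAR3 and PLPP3 are shown because they were the members with the largest difference between the PBS-labelled library and the Mig libraries. LPAR2, which was similar in all libraries, and LPAR6 stand beside them.
LPAR1: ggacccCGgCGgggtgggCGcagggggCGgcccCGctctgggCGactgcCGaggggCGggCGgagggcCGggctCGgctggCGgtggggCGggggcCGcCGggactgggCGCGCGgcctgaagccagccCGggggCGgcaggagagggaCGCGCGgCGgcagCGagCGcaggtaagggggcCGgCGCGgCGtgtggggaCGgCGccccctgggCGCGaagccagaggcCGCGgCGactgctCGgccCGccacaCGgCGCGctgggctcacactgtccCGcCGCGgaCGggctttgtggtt
LPAR3: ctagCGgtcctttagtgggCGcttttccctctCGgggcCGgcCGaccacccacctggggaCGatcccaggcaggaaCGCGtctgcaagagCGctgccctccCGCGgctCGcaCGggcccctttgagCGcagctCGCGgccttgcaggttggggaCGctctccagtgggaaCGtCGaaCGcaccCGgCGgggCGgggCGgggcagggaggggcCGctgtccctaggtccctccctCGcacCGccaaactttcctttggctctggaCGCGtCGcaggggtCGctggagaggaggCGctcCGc
PLPP3: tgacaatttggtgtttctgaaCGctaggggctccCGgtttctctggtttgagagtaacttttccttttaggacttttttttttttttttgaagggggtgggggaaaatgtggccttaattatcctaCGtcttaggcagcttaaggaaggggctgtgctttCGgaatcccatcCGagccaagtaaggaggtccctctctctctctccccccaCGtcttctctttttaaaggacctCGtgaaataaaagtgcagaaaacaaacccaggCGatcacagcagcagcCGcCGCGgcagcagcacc
LPAR2: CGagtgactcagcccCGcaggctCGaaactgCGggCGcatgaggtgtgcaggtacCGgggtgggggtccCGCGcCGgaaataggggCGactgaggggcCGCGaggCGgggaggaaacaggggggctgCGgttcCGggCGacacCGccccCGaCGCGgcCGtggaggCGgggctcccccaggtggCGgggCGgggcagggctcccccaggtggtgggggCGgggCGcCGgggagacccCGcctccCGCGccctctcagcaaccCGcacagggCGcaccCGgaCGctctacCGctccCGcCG
LPAR6: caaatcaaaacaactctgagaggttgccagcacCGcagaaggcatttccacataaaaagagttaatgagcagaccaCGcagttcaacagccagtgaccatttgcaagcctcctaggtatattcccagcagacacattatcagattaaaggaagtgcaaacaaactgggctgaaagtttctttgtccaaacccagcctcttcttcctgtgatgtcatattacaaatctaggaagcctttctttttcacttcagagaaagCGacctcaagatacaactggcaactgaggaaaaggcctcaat
All 5 are read from the minus strand, at chr9:111038038-111038337 for LPAR1, chr1:84893157-84893456 for LPAR3, chr1:56579514-56579813 for PLPP3, chr19:19628171-19628470 for LPAR2 and chr13:48413064-48413363 for LPAR6. For LPAR1 the table holds 6 such windows, of which the one nearest to an annotated coding transcript start was taken. The start of the LPAR6 window lies 2697 bases from the nearest start of a coding LPAR6 transcript in GENCODE, whereas those of the other 4 lie within 7 bases. Windows were found for 8 of the 10 members, and ENPP2 and PLPP1 had none.

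The CG content separated these windows. LPAR1 held 46 CG, LPAR2 37 and LPAR3 33, while the median of 35116 promoter windows was 14. Only 2.89% of all windows held as many as the LPAR1 window, compared with 11.3% for LPAR2 and 17.2% for LPAR3. The P2Y-type receptors lay below the median, with 6 CG for LPAR4, 3 for LPAR6 and 1 for LPAR5. PLPP2 held 39 CG and PLPP3 held 11. The CG-rich windows thus included receptors with 0 reads in the PBS-labelled library (LPAR1 and LPAR3) and receptors with reads in every library (LPAR2).

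Of 3 motifs searched on both strands, GGGCGG (GC box) occurred 5 times in the LPAR1 window, 3 times for LPAR2, 2 times for LPAR3 and 1 time for LPAR4, and 45.0% of all windows hold it. ACGTG is 1 form of the core of the hypoxia response element and also part of the E-box. This form occurred 1 time each for PLPP2 and PLPP3 and in none of the 6 receptor windows, against 21.4% of all windows. The other form of that core, GCGTG, was not searched, so its absence from a window is not shown. GGAATG, the core bound by TEAD factors, occurred 2 times for LPAR5 and in no other member's window, against 14.0% of all windows. A match is a string of letters and was not tested as a binding site.

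The libraries held 33882496 to 40285223 reads on genes. The PBS-labelled library stood apart, with 251 genes that had at most 3 reads there and at least 100 in each Mig library, whereas no other library had such a gene. Of 11 hepatocyte and HCC markers, ALB, AFP, GPC3, APOB and TTR had 0 reads in every library, so these defining markers of the labelled cell type were absent. HNF4A, a hepatocyte transcription factor of the same list, had 134, 146, 246 and 141 reads in the order PBS, normo-Migs, hypo-Migs and CD147KO-Migs, SERPINA1 had 25, 2, 9 and 10, and FGB had 0, 561, 827 and 832. The identity of the cells is taken from the labels and was not tested. The summed FPKM (reads per length and library size) of these 11 was 0.680 in the PBS-labelled library and 7.06 to 9.52 in the Mig libraries, where FGB was highest. The sum of 7 fibroblast and stellate cell markers was 3.15 in the PBS-labelled library and 19.0 to 20.3 in the Mig libraries, with COL1A1 highest in all 4. Here LUM was at 0 in the PBS-labelled library and COL1A2 in the Mig libraries. The sum of 6 endothelial markers was 0.553 to 0.892, and that of 6 leukocyte markers at most 0.134. The hepatocyte and fibroblast sums were higher in the Mig libraries, as were LPAR1, LPAR3 and PLPP3, and their part in those differences was not tested. The leukocyte sum in the PBS-labelled library, 0.0856, lay within the range of the Mig libraries. In bulk RNA, fewer cells of a type and less RNA per cell cannot be told apart.

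LPAR3 (chr1:84811602-84893213, minus strand), an EDG-type receptor, had the highest level per length of all receptors in each Mig library. It had 0 reads in the PBS-labelled library, 517 after normo-Migs, 530 after hypo-Migs and 461 after CD147KO-Migs. This amounted to 4.25, 3.70 and 3.68 FPKM in the Mig libraries in that order, and the 0 in the PBS-labelled library allows up to 0.0245 FPKM (a limit of 3 reads). The Mig libraries therefore lay close together and far from the PBS-labelled library. Against that limit, LPAR3 was 175-fold higher after normo-Migs, 152-fold higher after hypo-Migs and 151-fold higher after CD147KO-Migs. The exact 95% lower limits of the read ratio were 141, 123 and 123 in that order. Between Mig libraries, the log2 difference of scaled reads was -0.20 for hypo-Migs against normo-Migs (adjusted p = 0.0862) and 0.20 for normo-Migs against CD147KO-Migs (adjusted p = 0.0921). The scaled reads were nearly equal after hypo-Migs and CD147KO-Migs, with a ratio whose 95% interval ran from 0.884 to 1.14. These p-values are from edgeR's exact binomial test of the reads of 2 libraries. They compare libraries and not conditions, and like the intervals they cover counting error only.

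LPAR1 (chr9:110873263-111038458, minus strand), a widely expressed EDG-type receptor, had the same shape. It had 0 reads in the PBS-labelled library, 194 after normo-Migs, 292 after hypo-Migs and 234 after CD147KO-Migs. Its level was 1.36, 1.73 and 1.59 FPKM in the Mig libraries and at most 0.0209 FPKM in the PBS-labelled library. LPAR1 was at least 65.5-fold higher after normo-Migs than in the PBS-labelled library, at least 83.7-fold after hypo-Migs and at least 76.9-fold after CD147KO-Migs. Its scaled reads after hypo-Migs were 1.28 times those after normo-Migs (95% interval 1.06 to 1.54, log2 0.35, adjusted p = 0.0370 by the exact binomial test), the only receptor that passed the test in this pair. Against CD147KO-Migs the ratio was 1.09 (0.914 to 1.30), and the interval held 1.

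LPAR2 (chr19:19623668-19628930, minus strand), the remaining EDG-type receptor, was nearly level. It had 277 reads in the PBS-labelled library, 324 after normo-Migs, 344 after hypo-Migs and 326 after CD147KO-Migs. These correspond to 2.69, 3.16, 2.85 and 3.09 FPKM. No pair of libraries passed the exact binomial test, and the smallest adjusted p was 0.0585, for normo-Migs against PBS. There the ratio was 1.18, with an interval from 1.01 to 1.40. Hypo-Migs over normo-Migs gave 0.901, with an interval from 0.772 to 1.05.

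LPAR5 (chr12:6618835-6636447, minus strand), a P2Y-type receptor, was highest in the PBS-labelled library and lowest after CD147KO-Migs. It had 157 reads with PBS, 120 after normo-Migs, 102 after hypo-Migs and 69 after CD147KO-Migs, or 1.39, 1.07, 0.773 and 0.599 FPKM. Compared with the PBS-labelled library, its log2 difference was -0.36 after normo-Migs (adjusted p = 0.0509), -0.83 after hypo-Migs (adjusted p = 7.62e-06) and -1.18 after CD147KO-Migs (adjusted p = 5.24e-09). It was the single member past 2-fold below the PBS-labelled library. Between Mig libraries, the scaled reads after normo-Migs were 1.79 times those after CD147KO-Migs (1.32 to 2.44, adjusted p = 0.00117). The hypo-Migs library lay between them, with a ratio of 0.722 to normo-Migs (0.549 to 0.947, adjusted p = 0.0592) and of 1.29 to CD147KO-Migs (0.941 to 1.78, adjusted p = 0.242). These adjusted p-values come from the exact binomial test.

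LPAR6, the P2Y-type receptor whose loss of function is known to cause inherited hair loss, was barely detected in these libraries. By q-PCR of the LPA receptors, the study describes high LPAR6 expression in MHCC-97H cells, and it shows LPAR6 protein by Western blotting. Those measures were not analysed here, and the difference from them was not tested. It had 4 reads in the PBS-labelled library, 7 after normo-Migs, 13 after hypo-Migs and 15 after CD147KO-Migs. Its level was 0.0266, 0.0468, 0.0739 and 0.0976 FPKM in that order, and 29.5% to 32.7% of protein-coding genes had a lower FPKM. Many of those genes were at or near 0 reads, since 23.4% lay below ENPP2 with its 2 reads after hypo-Migs. LPAR6 thus supplied 0.648% of the summed receptor FPKM in the PBS-labelled library, 0.474% after normo-Migs, 0.809% after hypo-Migs and 1.08% after CD147KO-Migs.

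At this depth, differences in LPAR6 between Mig libraries were not detectable. Hypo-Migs over normo-Migs gave a ratio of 1.58, with an interval from 0.585 to 4.67 (log2 0.54, adjusted p = 0.573 by the exact binomial test). Hypo-Migs over CD147KO-Migs gave 0.756, with an interval from 0.331 to 1.70 (adjusted p = 0.736). Against the PBS-labelled library the log2 difference was 0.60 after normo-Migs (adjusted p = 0.448), 1.16 after hypo-Migs (adjusted p = 0.114) and 1.49 after CD147KO-Migs (adjusted p = 0.0287). LPAR6 entered these comparisons only through the hypo-Migs and CD147KO-Migs libraries, since the rule asked for 10 reads in at least 1 library, so it was bound to be higher there. LPAR6 spans chr13:48389567-48444704 on the minus strand and lies within RB1, the retinoblastoma gene, which is on the plus strand. RB1 had 2641, 2458, 3129 and 2488 reads in the same order of libraries and shares no exon base with LPAR6. The handling of strand was not given in the sources used here, so reads from RB1 introns cannot be told apart from reads of LPAR6.

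The 5 protein-coding genes whose pattern over the 4 libraries was most like that of LPAR6 were TTLL6, CEACAM19, EPB41L3, FOS and RARRES2. Likeness was the root mean square difference of centred log2 scaled reads, after 2 reads were added to every count. It was 0.0280 for TTLL6, 0.0758 for CEACAM19, 0.115 for EPB41L3, 0.116 for FOS and 0.138 for RARRES2. The added reads weigh most on LPAR6, which had the fewest reads of these genes, and narrow its range. TTLL6, a tubulin-modifying enzyme, had 44, 67, 117 and 134 reads. FOS, an immediate-early transcription factor, had 384, 567, 859 and 894 reads. Of 12187 genes compared, 37 lay within 0.2, and with 4 libraries and so few LPAR6 reads this order is a description.

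LPAR4 (chrX:78747709-78757094, plus strand), a P2Y-type receptor best known from vascular development, had 0 reads in every library. This allows a level of up to 0.0238 FPKM after hypo-Migs, the deepest library, and up to 0.0280 after normo-Migs. It is the only member that was not tested.

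**Figure D1:**
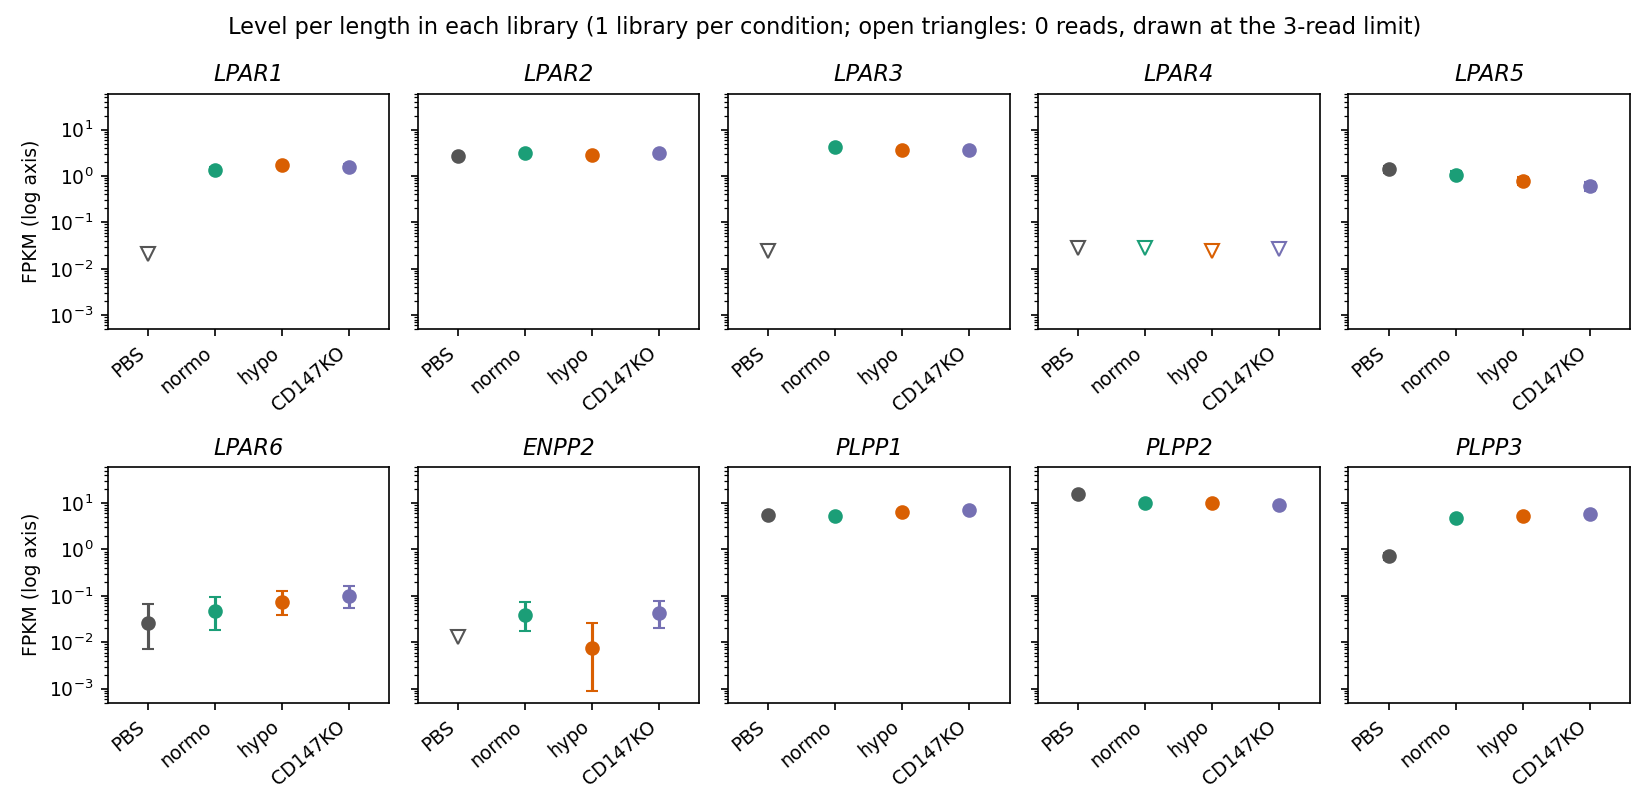
Level of each of the 10 genes in each library, as FPKM on a log axis, with exact 95% Poisson intervals of the reads (hidden by the symbol where narrow) and 1 library per condition. Open triangles stand for 0 reads and are drawn at the 3-read limit. LPAR1 and LPAR3 lie at that limit in the PBS-labelled library and between 1.36 and 4.25 FPKM in the Mig libraries, and LPAR6 lies below 0.1 FPKM in all 4.

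The order of receptor levels per length differed between the PBS-labelled library and the Mig libraries. In the PBS-labelled library, LPAR2 came first, LPAR5 next and LPAR6 far below, and LPAR1, LPAR3 and LPAR4 were at 0. In each Mig library the order was LPAR3, LPAR2, LPAR1, LPAR5, LPAR6 and LPAR4. Neighbours whose intervals overlapped were LPAR1 and LPAR5 after normo-Migs, LPAR3 and LPAR2 after CD147KO-Migs, and LPAR6 and LPAR4 after normo-Migs. With hypo-Migs no neighbours overlapped, and with PBS LPAR6 overlapped the genes at 0.

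The summed receptor FPKM was 4.11 in the PBS-labelled library, 9.89 after normo-Migs, 9.13 after hypo-Migs and 9.06 after CD147KO-Migs. EDG-type receptors held 65.4% of the sum in the PBS-labelled library and 88.7%, 90.7% and 92.3% in the Mig libraries. LPAR3 alone held 43.0%, 40.5% and 40.6% of it in the Mig libraries. The share of LPAR5 was 33.9% in the PBS-labelled library and 10.8%, 8.47% and 6.61% in the Mig libraries.

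**Figure D2:**
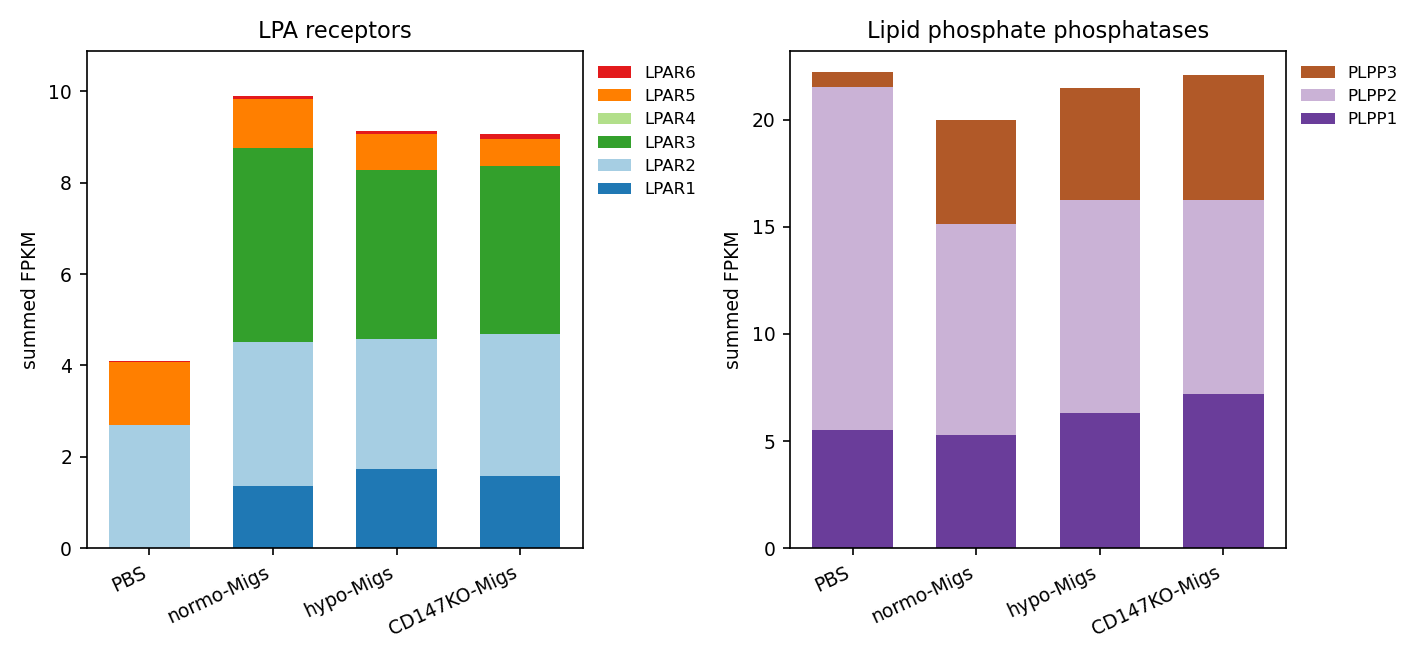
Summed FPKM of the 6 LPA receptors (left) and the 3 lipid phosphate phosphatases (right) in each library, stacked by gene. The receptor bars are 4.11 with PBS and 9.06 to 9.89 with Migs, and the phosphatase bars lie between 20.0 and 22.2 on the deposited gene lengths. With the longest coding transcript as length the phosphatase sum would be 88.8 with PBS and 64.2 to 66.7 with Migs, and PLPP3 takes a larger part in the Mig libraries on either length.

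ENPP2, the secreted enzyme that makes LPA from lysophosphatidylcholine, was at the edge of detection. It had 0 reads in the PBS-labelled library, 9 after normo-Migs, 2 after hypo-Migs and 10 after CD147KO-Migs, or 0, 0.0389, 0.00734 and 0.0420 FPKM. The library after hypo-Migs was thus the lowest of the 3 Mig libraries. The ratio of hypo-Migs to normo-Migs was 0.189, with an interval from 0.0198 to 0.911, and that to CD147KO-Migs was 0.175, with an interval from 0.0186 to 0.819. The adjusted p was 0.0945 and 0.0618 by the exact binomial test. Against the 3-read limit, ENPP2 was at least 3.04-fold higher after normo-Migs and at least 3.28-fold higher after CD147KO-Migs than in the PBS-labelled library. No fold is given for hypo-Migs against PBS, where both counts are at or below that limit. ENPP2 passed the read minimum through the CD147KO-Migs library alone.

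Of the genes that end the LPA signal, PLPP3 (chr1:56494747-56645301, minus strand) had the largest difference from the PBS-labelled library. This phosphatase, which is abundant in endothelium and stroma, had 130 reads in the PBS-labelled library, 880 after normo-Migs, 1119 after hypo-Migs and 1089 after CD147KO-Migs. Its level was 0.711 FPKM against 4.84, 5.23 and 5.83 FPKM. Compared with the PBS-labelled library, the scaled reads were 6.86-fold (5.70 to 8.31) higher after normo-Migs, 7.40-fold (6.17 to 8.95) after hypo-Migs and 8.26-fold (6.88 to 9.98) after CD147KO-Migs. The Mig libraries differed far less among themselves. PLPP3 was 1.20 times higher after CD147KO-Migs than after normo-Migs (log2 difference of normo-Migs minus CD147KO-Migs -0.27, adjusted p = 0.000574) and 1.12 times higher than after hypo-Migs (log2 difference of hypo-Migs minus CD147KO-Migs -0.16, adjusted p = 0.0434), by the exact binomial test. PLPP3 shares 576 exon bases with AC119674.2 on the same strand, which had at most 6 reads.

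PLPP2 (chr19:281040-291504, minus strand), which also dephosphorylates LPA, had the most reads of all members and was highest in the PBS-labelled library. It had 3900 reads there, 2390 after normo-Migs, 2847 after hypo-Migs and 2260 after CD147KO-Migs, or 16.0, 9.85, 9.96 and 9.06 FPKM. Scaled reads in the PBS-labelled library were 1.61 times those after normo-Migs, 1.59 times those after hypo-Migs and 1.75 times those after CD147KO-Migs, less than 2-fold in each pair. Hypo-Migs exceeded CD147KO-Migs by a log2 difference of 0.14 (adjusted p = 0.00620 by the exact binomial test) and normo-Migs exceeded it by 0.12 (adjusted p = 0.0240). The FPKM of PLPP2 rests on a gene length of 7059 bases, the union of all annotated exons, while its longest coding transcript has 1397. With that length it would be 80.7, 49.8, 50.3 and 45.8 in the same order of libraries.

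PLPP1 (chr5:55424854-55535050, minus strand), a widely expressed phosphatase of this family, had more reads after hypo-Migs and CD147KO-Migs than in the other libraries. It had 385 reads in the PBS-labelled library, 367 after normo-Migs, 514 after hypo-Migs and 513 after CD147KO-Migs, or 5.52, 5.30, 6.30 and 7.20 FPKM. CD147KO-Migs exceeded normo-Migs 1.36-fold (log2 difference of normo-Migs minus CD147KO-Migs -0.44, adjusted p = 0.000123), and hypo-Migs exceeded normo-Migs 1.19-fold (log2 0.25, adjusted p = 0.0467) by the exact binomial test. CD147KO-Migs exceeded PBS 1.31-fold (1.15 to 1.5, adjusted p = 0.000105). PLPP1 shares 481 exon bases with MTREX, an RNA helicase gene on the other strand with 4897, 3438, 3703 and 3302 reads. Reads in the shared bases cannot be assigned to either without strand. Other annotated genes that overlap a member (RNU6-432P, RF00019, RF00017, CYCSP23, AC010480.1, MIR5687, RNF138P1, RPL21P23, RPL23AP85 and AC099789.1) had at most 6 reads in any library.

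On the deposited gene lengths, the summed FPKM of the 3 phosphatases was 22.2 in the PBS-labelled library and 20.0, 21.5 and 22.1 in the Mig libraries. Within this sum, the share of PLPP2 was 71.9% in the PBS-labelled library and 49.3%, 46.4% and 41.0% in the Mig libraries. The share of PLPP3 was 3.20% against 24.2%, 24.3% and 26.4%. With the longest coding transcript as length, which was tried after seeing the data, the sum was not level, at 88.8 in the PBS-labelled library against 64.2, 66.7 and 64.2. The share of PLPP3 was then 1.29% against 12.1%, 12.6% and 14.6%.

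The comparison of hypo-Migs with normo-Migs asks what the donor's oxygen changed, and that with CD147KO-Migs what the donor's CD147 changed. Between normo-Migs and CD147KO-Migs the donors differ in both oxygen and CD147, which cannot be told apart there. Of the 9 members tested, ENPP2 was the 1 past 2-fold when hypo-Migs were set against normo-Migs, where 9.39% of all 19895 genes tested were past 2-fold. The same gene was the 1 member past 2-fold between hypo-Migs and CD147KO-Migs, against 9.13% of all genes. Between normo-Migs and CD147KO-Migs it was 0 of 9, against 9.46%, while 4 members passed the exact binomial test with smaller differences (LPAR5, PLPP1, PLPP2 and PLPP3). In the hypo-Migs pairs ENPP2 did not pass it, so 0 of 9 members met both criteria in any of these pairs, against 4.87%, 5.05% and 4.90% of all genes in the order given. The first 2 of these comparisons share the hypo-Migs library. ENPP2 passed the read minimum through CD147KO-Migs alone and so was bound to be high there, which makes its call against CD147KO-Migs a description. The median log2 difference over the tested members was 0.02 for hypo-Migs against normo-Migs and -0.12 for hypo-Migs against CD147KO-Migs, and over all genes it was 0.00 in both.

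Against the PBS-labelled library, members past 2-fold numbered 4 of 9 after normo-Migs (29.9% of all genes tested), 4 of 9 after hypo-Migs (30.5%) and 6 of 9 after CD147KO-Migs (30.0%). Of these, 4, 4 and 5 were higher, against 18.1%, 18.9% and 18.1% of all genes. Both 2-fold and the exact binomial test were met by 4, 3 and 6 members, against 27.2%, 28.3% and 27.5% of all genes. LPAR1, LPAR3 and PLPP3 were higher in all 3 of these comparisons, which share the PBS-labelled library. ENPP2 was added after normo-Migs, LPAR6 after hypo-Migs, and both of these with LPAR5, which was lower, after CD147KO-Migs. LPAR1, LPAR3, LPAR6 and ENPP2 had fewer than 10 reads in the PBS-labelled library and so were tested only because a Mig library was high. Their count is therefore a description. Without the PBS-labelled library, none of these differences is left to describe, and the members among the 3 Mig libraries lay within 1.10-fold (PLPP2) to 2.08-fold (LPAR6) of each other, other than ENPP2 at 5.73-fold and LPAR4 at 0.

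**Figure D3:**
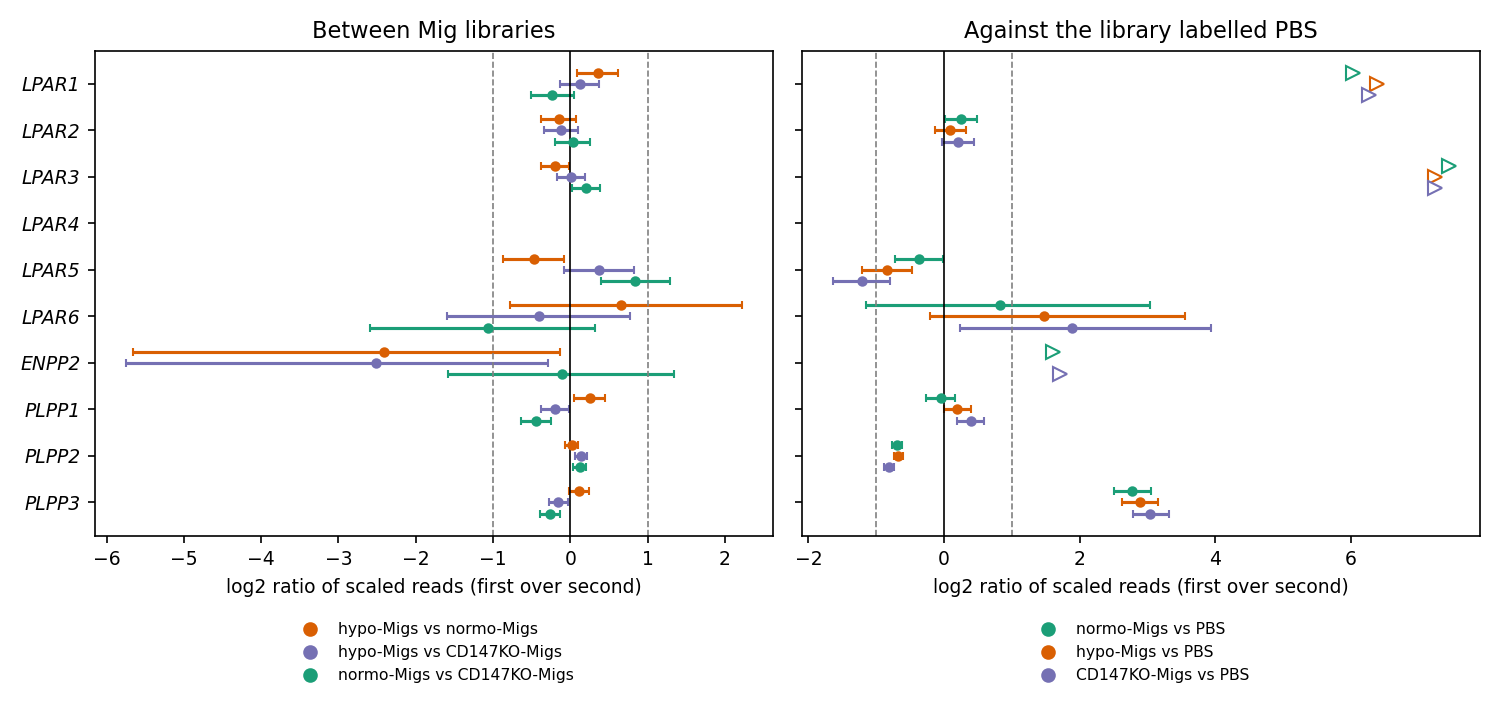
Log2 ratio of TMM-scaled reads for each gene between Mig libraries (left) and against the PBS-labelled library (right), with exact 95% intervals for counting error and dashed lines at 2-fold. Open arrowheads are ratios against the 3-read limit where a gene had 0 reads, without counting error. Pairs without a point had both counts at or below 3 reads. Points are ratios without a prior count. Between Mig libraries only the ENPP2 points of the hypo-Migs pairs and the LPAR6 point for normo-Migs against CD147KO-Migs (a ratio of 0.480) lie below the lower dashed line, and on the right LPAR1, LPAR3 and PLPP3 lie beyond the upper one in all 3 comparisons.

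Enzymes other than ENPP2 that form LPA or its precursors were examined next. Of 14 listed, 13 were tested, and against the PBS-labelled library 2 were higher and 2 lower by 2-fold in each of the 3 comparisons. This share was close to the 29.9% to 30.5% of all genes past 2-fold in these comparisons. GPAT3, which acylates glycerol-3-phosphate to LPA, had 79 reads in the PBS-labelled library and 354, 394 and 321 in the Mig libraries. GDPD1, a lysophospholipase D, had 53 reads against 191, 249 and 227. Lower were PLA2G6, a calcium-independent phospholipase A2, with 395 reads against 119, 180 and 152, and LIPI, with 16 reads against 0, 1 and 6. LIPI passed the read minimum through the PBS-labelled library alone and so was bound to be lower elsewhere. Between hypo-Migs and normo-Migs, PLA1A alone passed 2-fold, on 8 and 1 reads. PLD1, which makes phosphatidic acid, was higher after hypo-Migs by a log2 difference of 0.20 (adjusted p = 0.0179), and PLA2G4A, the cytosolic phospholipase A2, by 0.15 (adjusted p = 0.0198), by the exact binomial test. AGK, a kinase that makes LPA from monoacylglycerol, differed by -0.16 in the same pair (adjusted p = 0.00823), with 1501, 1610, 1693 and 1508 reads. GDPD3, another lysophospholipase D, had 89, 49, 63 and 75 reads. The list's median log2 difference was 0.14 for hypo-Migs against normo-Migs, where the median of all genes was 0.00.

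Genes that consume LPA or resemble the phosphatases included 12 tested of 15. PLPP7 and PLPPR3, relatives of the lipid phosphatases, had 2 reads each in the PBS-labelled library. PLPP7 had 265, 250 and 291 reads in the Mig libraries and PLPPR3 had 82, 98 and 68. Both were tested only because a Mig library was high, so their difference from the PBS-labelled library is a description. AGPAT3, which acylates LPA to phosphatidic acid, had 3668 reads against 1936, 1961 and 1833 and was past 2-fold lower after hypo-Migs and CD147KO-Migs. None (0 of 12) was past 2-fold when hypo-Migs were set against normo-Migs, where 9.39% of all genes tested were. The largest named differences in that pair were -0.32 for PLPP7 (adjusted p = 0.0484), 0.25 for PLPP6 (adjusted p = 0.0417) and 0.24 for ACP6, a mitochondrial LPA phosphatase (adjusted p = 0.00427), on the log2 scale and by the exact binomial test. The median log2 difference of the list was -0.07 in that pair and 0.23 for hypo-Migs against PBS, where that of all genes was 0.04.

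Macropinocytosis is the route the study examined with LPAR6, and 15 of 15 genes of its machinery were tested. In each of the 3 comparisons among Mig libraries 0 were past 2-fold. Among all genes tested, the share was 9.39% for hypo-Migs against normo-Migs, 9.13% for hypo-Migs against CD147KO-Migs and 9.46% for normo-Migs against CD147KO-Migs. WASF2, an actin regulator of membrane ruffles, was lower than in the PBS-labelled library by 2-fold with all 3 Migs, with 8041 reads against 3930, 4383 and 3754. PIK3CA, the catalytic subunit of PI3K, had 1808 against 970, 1160 and 765, and was higher after hypo-Migs than after CD147KO-Migs by a log2 difference of 0.40 (adjusted p = 8.84e-08 by the exact binomial test). In the same pair CTBP1, which closes macropinosomes, differed by -0.14 (adjusted p = 0.00244). CYTH2, an exchange factor for ARF6, differed by -0.13 between hypo-Migs and normo-Migs (adjusted p = 0.0481). CDC42 had 21, 46, 31 and 37 reads and was past 2-fold higher after normo-Migs than in the PBS-labelled library. It lies within AL031281.2, a coding gene on the same strand with 32, 11, 6 and 13 reads, and shares 2055 of its 3598 exon bases with it, so reads there may not be assigned to either gene, which was not tested. The list's median log2 difference was 0.00 for hypo-Migs against normo-Migs, -0.06 against CD147KO-Migs and -0.20 against PBS.

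Genes known to respond to LPA through YAP or MAP kinase signals were tested for 15 of 15. Past 2-fold against the PBS-labelled library were 5 higher and 2 lower after normo-Migs, 5 and 2 after hypo-Migs, and 7 and 0 after CD147KO-Migs. Among all genes tested, 29.9%, 30.5% and 30.0% were past 2-fold in these comparisons. CTGF, CXCL8, IL6 and HBEGF were among those past 2-fold higher with all 3 Migs. IL6, an inflammatory cytokine, had 0 reads in the PBS-labelled library and 110, 181 and 180 in the Mig libraries, and the chemokine CXCL8 had 16 against 317, 416 and 397. IL6 was tested only because a Mig library was high, so its call is a description. CTGF, a matricellular YAP target, had 44 against 205, 249 and 223. FOSB, an immediate-early gene, had 90 reads against 42, 51 and 70. ANKRD1 and FOSB were past 2-fold lower after normo-Migs and hypo-Migs, and EGR1 and FOS past 2-fold higher after CD147KO-Migs. The list did not move as 1 group, since CYR61, a close relative of CTGF, had 2791 reads in the PBS-labelled library and 1596, 1886 and 1928 in the Mig libraries.

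Among Mig libraries the LPA-responsive genes differed less, as did all genes tested. Between hypo-Migs and normo-Migs 0 of 15 were past 2-fold, against 9.39% of all genes tested. AREG, an EGF receptor ligand, had 111 reads after normo-Migs, 231 after hypo-Migs and 211 after CD147KO-Migs, with a log2 difference of 0.81 between hypo-Migs and normo-Migs (adjusted p = 1.37e-05 by the exact binomial test). IL6 differed by 0.48 in the same pair (adjusted p = 0.0276). TAGLN, a smooth muscle actin-binding protein, had 164, 174 and 82 reads in the Mig libraries and was 0.87 higher after hypo-Migs than after CD147KO-Migs (adjusted p = 5.48e-05). Between hypo-Migs and CD147KO-Migs, 1 of 15 was past 2-fold, ANKRD1 on 4 and 14 reads, against 9.13% of all genes tested. The median of the list was 0.04 for hypo-Migs against normo-Migs and -0.07 against CD147KO-Migs, near the 0.00 of all genes.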

How the data were processed

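Polyadenylated RNA of the 4 libraries was sequenced by the authors. Per the submitters' processing notes, CASAVA 1.8, fastp, HISAT2 2.0.5 and featureCounts 1.5.0-p3 were used with hg38. Raw counts per gene and FPKM (counts divided by gene length and library size) were deposited by the authors. Each deposited FPKM equals the reads divided by length and by 0.994 to 1.02 times the total of reads on genes. All 58735 identifiers had the coordinates of GENCODE release 29. Strand handling was not given in the sources used here. Genes were matched between tables by identifier.

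Tests covered the 19895 genes that reached 10 reads in any library. Scaling was by TMM (factors 0.986 to 1.02), and log2 differences used a prior count of 2. With 1 library per condition there is no replicate check, so a gene was called when past 2-fold. Beside it stand edgeR's two-sided exact binomial test at dispersion 0, adjusted by the Benjamini-Hochberg method over all genes tested, and exact 95% intervals of the read ratio, which cover counting error only. A count of 0 was taken to allow 3 reads per library, 0.0745 to 0.0885 per 1000000 reads. The procedure was checked on simulated counts that held counting error only. Changes were set only in genes with more reads than LPAR6 and ENPP2. This check therefore does not cover spread between cultures or changes in genes with so few reads.

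All 10 members were named. From each of 6 pathway lists (LPA formation, LPA removal and LPP relatives, macropinocytosis machinery, other lysophospholipid receptors, other ENPP enzymes, LPA-responsive genes), genes averaging 50 reads or more were named by size, up to 4 from the hypo-Migs pairs and up to 3 from the PBS pairs. Genes named beyond these, which were past 2-fold or show the range of a list, were chosen after their values were seen. The members, lists and 4 marker lists were chosen with earlier results of these data known. Alternatives concerned scaling (DESeq2 size factors, total reads), the filter, the prior count, FPKM with pseudocounts of 1 and 0.1, and protein-coding genes alone. The use of the 3 Mig libraries alone and of the longest coding transcript as length was chosen after seeing the data. R 4.3.3, edgeR 4.0.16, DESeq2 1.42.0, Python 3.11.15, numpy 2.4.6, pandas 2.3.3, scipy 1.17.1 and matplotlib 3.10.9 were used. A further list and some genes of these lists are not reported here. Imaging, knockdown and animal experiments were not analysed here.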

Additional observations from a re-analysis of the deposited data

How the results depend on the processing

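No paired analysis was possible because each condition has 1 library, and for the same reason no library could be left out of a group. Of the counts of members past 2-fold and the receptor orders, 56 values under alternatives stayed the same or nearly so and 13 moved. The count for hypo-Migs against normo-Migs and for hypo-Migs against CD147KO-Migs, which was 1, became 0 with at least 10 reads in every library, on log2(FPKM + 1), on log2(FPKM + 0.1) and when an adjusted p of 0.05 or less was also asked. The count for normo-Migs against CD147KO-Migs became 1 (LPAR6) with a prior count of 0.25. With at least 10 reads in every library, the counts against PBS became 1 after normo-Migs, 1 after hypo-Migs and 2 after CD147KO-Migs, since LPAR1, LPAR3, LPAR6 and ENPP2 then leave the test. The last was 3 on log2(FPKM + 1). The order of receptors was the same with TPM, with reads not divided by length and with the longest coding transcript as length. Of the 54 log2 differences of single members, 0 shifted by more than 0.5 with DESeq2 size factors or total reads, 11 with a prior count of 0.25 (up to 3.00, LPAR3), 13 on log2(FPKM + 0.1) and 20 on log2(FPKM + 1). For LPAR1 and LPAR3 against 0 reads the fitted value therefore depends on the setting, and the folds given for them are lower limits from the reads.

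The number of all genes past 2-fold depended on low counts. Between hypo-Migs and normo-Migs it was 1869, and it was 5131 without a filter, 254 with at least 10 reads in every library, 641 for protein-coding genes alone, 969 with an adjusted p of 0.05 or less also asked, 1021 on log2(FPKM + 0.1) and 56 on log2(FPKM + 1). Between hypo-Migs and PBS it was 6071, and 9642, 2747, 3831, 5640, 4820 and 1674 in the same order.

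Depth limits LPAR6 and ENPP2, whose intervals between Mig libraries span several-fold. The spread between cultures is unknown for every value.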

Other observations

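Of 10 other receptors for lysophospholipids, 6 were tested, and against the PBS-labelled library 5 were past 2-fold after normo-Migs, 4 after hypo-Migs and 5 after CD147KO-Migs, in both directions. Among all genes tested, 29.9%, 30.5% and 30.0% were past 2-fold in these comparisons. S1PR1, a sphingosine-1-phosphate receptor best known from endothelium and lymphocytes, had 0 reads in the PBS-labelled library and 123, 206 and 165 after normo-Migs, hypo-Migs and CD147KO-Migs. S1PR1 and GPR35 had fewer than 10 reads in the PBS-labelled library and so were tested only because a Mig library was high. Counts that include them as higher are therefore a description. S1PR2 had 84 reads against 220, 274 and 206, and S1PR3 had 124 against 477, 555 and 461, so these 3 were past 2-fold higher in each Mig library. S1PR4, the receptor of this family found in blood cells, was past 2-fold lower, with 45 reads against 20, 18 and 21. S1PR5 had 202, 217, 294 and 245 reads and was within 2-fold throughout. Between hypo-Migs and normo-Migs, S1PR1 differed by a log2 of 0.50 (adjusted p = 0.0121 by the exact binomial test), and GPR35 was past 2-fold lower on 4 and 22 reads. The median log2 difference over the 6 was 0.89 for hypo-Migs against PBS and 0.03 for hypo-Migs against normo-Migs.

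Of 6 other enzymes of the ENPP family, 2 were tested. ENPP1, which makes pyrophosphate from nucleotides, had 237 reads in the PBS-labelled library and 393, 434 and 386 in the Mig libraries, a log2 difference of 0.65 to 0.74. ENPP4 had 0, 4, 10 and 8 reads and passed the read minimum through the hypo-Migs library alone.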
